A study of Mus musculus with 36 samples.

Results

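Described here are 10 genes of the mesoderm, the embryonic layer that gives rise to muscle, connective tissue, heart and vessels, out of 55335 genes counted in mouse embryonic stem cells. They are the homeobox genes Meox1 and Meox2, the basic helix-loop-helix genes Tcf15 and Twist1, the forkhead genes Foxc1, Foxc2, Foxd2 and Foxf1, the long noncoding RNA Fendrr that lies beside Foxf1, and Kdr, which encodes a receptor for VEGF. They were taken by gene symbol, and several were selected on their measured change in level between IAA and DMSO libraries. IAA against DMSO is therefore given as a description, without a test. Of the 10, 9 passed the filter on low counts and were tested with 17394 genes in all. Meox2 did not pass. Fendrr passed only through IAA libraries, since 0 of its DMSO and BPK25 libraries reached the filter's level of 1.02 CPM (CPM is a count scaled to a common library total). It is therefore described in counts, and tallies of genes called by the test cover the other 8.

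Polyadenylated RNA was sequenced from cells labelled mESC, pluripotent stem cells of the early mouse embryo. The 36 libraries came from 3 treatments (DMSO, BPK25 and IAA) at each of days 0, 2, 4 and 6, with 3 libraries in each of the 12 groups. DMSO, a common solvent, served as the control. BPK25 is given only by this code name, and IAA (auxin) causes a protein fused to a degron to be destroyed in cells engineered for it. By its title, the series is about the chromatin remodeller NuRD and genome folding where CTCF binds. Its labels give no genotype beyond mESC, no tagged protein, no clone, no dose and no event from which days are counted, so it cannot be said whether DMSO and BPK25 cells carry the tag that IAA acts on. The growth protocol, the same for all 12 groups, gives serum replacement medium with LIF, which favours the stem cell state, and irradiated fibroblast feeders as the typical support. No label says that the 3 libraries of a group came from different cultures, so the spread behind each p-value may be technical.

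As background, mesoderm forms at gastrulation and splits into regions with their own transcription factors. Paraxial mesoderm makes somites and uses Tcf15, Meox1, Meox2, Foxc1, Foxc2 and Foxd2, while lateral plate and splanchnic mesoderm use Foxf1 and Fendrr. Twist1 acts in mesenchyme, and Kdr marks early mesoderm with vascular and blood potential before it becomes the main VEGF receptor of endothelium.

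Library totals ran from 6621288 to 16497799 counts. Summed levels of 6 stem cell markers (Pou5f1, Nanog, Sox2, Esrrb, Zfp42 and Dppa5a) were 2642 ± 57.1 CPM in DMSO at day 0 and 678 ± 5.59 at day 6. They were 3478 ± 20.8 in IAA at day 0 and 567 ± 17.9 at day 6, so these markers were detected throughout, at a lower level late. Here and below, ± after a level is the SD over 3 libraries. BPK25 at day 4 stood apart from DMSO of the same day, with a root mean square log2 distance of 0.537 over the tested genes, against 0.23 at day 2 and 0.196 at day 6. Its nearest group was IAA at day 2, at 0.443, as measured between group means. No result for BPK25 at day 4 can be given without its 3 libraries. In these bulk libraries, fewer cells of a type and less RNA per cell cannot be told apart.

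Mean levels of 8 of the 10 genes were higher at day 6 than at day 0 in each of the 3 treatments, and each of the 8 was highest in an IAA group. Meox1, Kdr and Twist1 were already higher in IAA at day 2. Foxf1, Foxc2, Foxd2 and Fendrr were close to their DMSO level at day 2 and higher at day 4. Tcf15 went the other way, with a lower mean at day 6 than at day 0 in all 3 treatments, and Meox2 stayed at the detection limit. Counting genes that differed at least 2-fold between IAA and DMSO of the same day with no overlap of libraries, on the scale of CPM + 0.5, 0 of the 9, Fendrr included, were higher and 1 lower at day 0. The numbers were 2 higher and 0 lower at day 2, 7 and 1 at day 4, and 6 and 1 at day 6. Of all 17394 genes, 3.12%, 4.72%, 4.15% and 6.21% were higher and 1.24%, 4.84%, 2.31% and 4.63% lower by this measure at days 0, 2, 4 and 6. Since IAA chose several of the genes, nothing is read from these shares. Just inside the 2-fold line lay Foxc2 at day 6 (2.12-fold higher in IAA) and Foxc1 at day 0 (2.14-fold lower), and just outside it lay Twist1 at day 2 (2-fold higher after rounding).

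**Figure D1:**
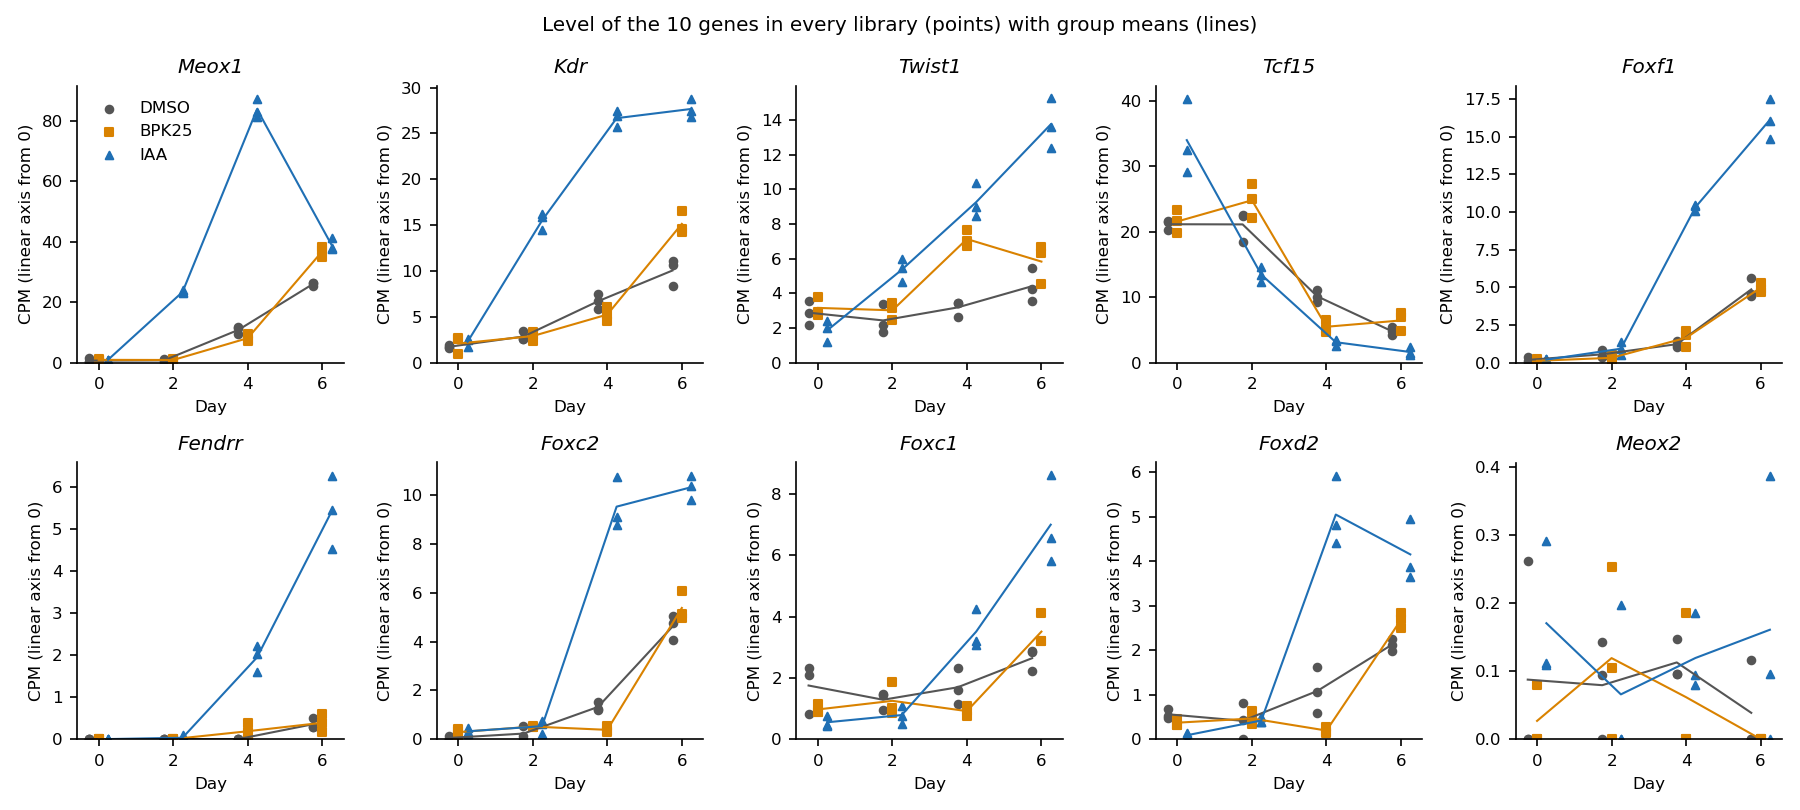
Level in CPM (y axes, linear and starting at 0, with a different range in each panel) of each of the 10 genes against day (x axes) in DMSO (grey circles), BPK25 (orange squares) and IAA (blue triangles). Each point is 1 library and lines join the means of 3 libraries; Meox1 peaks at day 4 in IAA at 83.9 ± 2.99 CPM, Tcf15 is lower late, and Meox2 stays under 0.4 CPM in every library.

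Meox1, a homeobox factor needed for normal somites and the axial skeleton derived from them, lies on chromosome 11 from 101877510 to 101894374 on the minus strand (GRCm38, as for all positions here). In DMSO it had 0.273, 0.263 and 1.4 CPM in the 3 libraries of day 0, 0.143, 1.07 and 0.945 at day 2, 11.6, 11.4 and 9.4 at day 4 and 25.3, 26.3 and 26.3 at day 6. In IAA it had 0.764, 1 and 1.02 CPM at day 0, 22.9, 24 and 23.3 at day 2, 87.2, 83 and 81.4 at day 4 and 41.3, 38 and 37.6 at day 6. The libraries overlapped at day 0, and every IAA library was above every DMSO library from day 2 on. The mean in IAA at day 2, 23.4 ± 0.562 CPM, was near that of DMSO at day 6, 26 ± 0.577, and the level in IAA then peaked at day 4 and was lower at day 6. In BPK25, Meox1 had 9.45, 7.5 and 7.31 CPM at day 4 and 35.1, 38.1 and 37.2 at day 6. It was lower than in DMSO at day 4 (log2 difference -0.42 ± 0.13, adjusted p = 0.00564), although 1 BPK25 library lay just above the lowest DMSO library. It was higher at day 6 by 0.50 ± 0.08 (adjusted p = 2.86e-05), with no overlap. Here and below, ± after a log2 difference is an approximate standard error, the absolute difference over the root of F in edgeR's quasi-likelihood test. From the highest group down, the order was IAA at day 4, IAA and BPK25 at day 6, which overlapped, DMSO at day 6, IAA at day 2, and DMSO and BPK25 at day 4, which overlapped.

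Meox2, the second member of the homeobox family, with roles in limb muscle and vessels, had 30 counts in all 36 libraries together. It lies on chromosome 12 from 37108540 to 37179534 on the plus strand. In 16 libraries it had 0 counts, and its highest level was 0.388 CPM, from 3 counts in 1 IAA library of day 6. At this depth no difference between groups was detectable, and no fold is given.

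Tcf15, also called paraxis, encodes a helix-loop-helix factor of the somite epithelium that is also expressed in embryonic stem cells. It lies on chromosome 2 from 152143561 to 152149097 on the plus strand. In DMSO it had 20.3, 21.5 and 21.6 CPM at day 0, 22.4, 18.5 and 22.5 at day 2, 9.24, 11.2 and 9.99 at day 4 and 5.39, 4.26 and 4.79 at day 6. The IAA libraries had 29.1, 32.5 and 40.3 CPM at day 0, 13.3, 12.3 and 14.6 at day 2, 2.53, 3.33 and 3.48 at day 4 and 1.43, 2.33 and 1.09 at day 6. IAA libraries were all higher than DMSO at day 0 and all lower at days 2, 4 and 6. In BPK25 it had 4.72, 5.13 and 6.57 CPM at day 4, lower than DMSO (log2 difference -0.89 ± 0.17, adjusted p = 1.26e-05) with no overlap, and 7.02, 4.77 and 7.54 at day 6, where the difference of 0.43 ± 0.18 was not called (adjusted p = 0.144). Among tested genes that met the expression floor, with predicted and clone names left out, the one with the profile most similar to Tcf15 was Nanog, a core pluripotency factor. Its Pearson r was 0.991 over the 12 group means of log2(CPM + 0.5). With Spearman's rank correlation Nanog had 0.951, and 0 of the 3 genes most like Tcf15 by Pearson's r were still among the first 3. The E protein genes Tcf3 and Tcf12, which encode dimer partners of such factors, had 192 ± 7.74 and 96.3 ± 3.38 CPM in DMSO at day 0 and 218 ± 4.24 and 132 ± 4.19 at day 6. Over the same days the Id genes, whose products block such dimers, went from 3.99 ± 0.629 to 44.3 ± 1.05 CPM for Id2 and from 0.733 ± 0.575 to 16.1 ± 2.07 for Id3. Of these 7 E protein and Id genes, 6 rose and 0 fell in DMSO from day 0 to day 6, beside 33.2% and 29.5% of all genes, with a median log2 difference of 0.57 beside 0.03 over all genes. In IAA at day 2 Id2 stood at 23.2 ± 3.32 CPM against 4.14 ± 0.23 in DMSO.

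Twist1, a helix-loop-helix factor of mesenchyme and cranial neural crest, lies on chromosome 12 from 33957671 to 33959829 on the plus strand. In DMSO it had 2.18, 2.89 and 3.57 CPM at day 0, 2.15, 1.74 and 3.4 at day 2, 3.46, 3.43 and 2.64 at day 4 and 3.54, 5.45 and 4.23 at day 6. IAA libraries held 2.4, 2.01 and 1.16 CPM at day 0, 5.97, 5.43 and 4.65 at day 2, 8.44, 8.98 and 10.3 at day 4 and 12.4, 15.2 and 13.6 at day 6. The groups overlapped at day 0, and all IAA libraries were above all DMSO libraries from day 2 on. In BPK25 at day 4 it had 6.71, 7.63 and 7.03 CPM, higher than DMSO by 1.12 ± 0.19 (log2, adjusted p = 2.75e-06) with no overlap, while 5 of the other genes were lower. At day 6 it had 6.32, 4.51 and 6.65 CPM, a difference of 0.48 ± 0.18 that was not called (adjusted p = 0.0915). Of 13 tested genes of mesenchyme and epithelial-mesenchymal transition, 10 were called in BPK25 against DMSO at day 4, with 2 above and 8 below, beside 26.2% and 26.8% of all genes. Cdh1, the epithelial cadherin, rose (1.05 ± 0.04), and Snai1 (-1.07 ± 0.20), Cdh2 (-0.91 ± 0.11) and Zeb2 (-0.90 ± 0.12), genes linked to the mesenchymal state, fell. The median log2 difference of these 13 genes was -0.53, beside -0.01 over all genes tested.

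Foxf1 encodes a forkhead factor of lateral plate and splanchnic mesoderm, needed for lung and vessel development, and Fendrr is a long noncoding RNA of lateral mesoderm known to affect heart and body wall development. They form a divergent pair on chromosome 8. Foxf1 runs on the plus strand from 121084386 to 121088144, Fendrr on the minus strand from 121054882 to 121083110, and their starts lie 1276 bases apart without overlap. Whether counting used strand is unknown here. Foxf1 had 0.136, 0.394 and 0 CPM in DMSO at day 0, 0.86, 0.402 and 0.378 at day 2, 1.44, 1.05 and 1.18 at day 4 and 4.41, 4.56 and 5.61 at day 6. In IAA it had 0.218, 0.223 and 0.145 CPM at day 0, 1.4, 0.888 and 0.475 at day 2, 10.4, 10.1 and 10.4 at day 4 and 14.8, 16 and 17.5 at day 6. The groups overlapped at days 0 and 2 and were apart at days 4 and 6. In BPK25 it had 2.07, 1.84 and 1.02 CPM at day 4 and 4.91, 5.28 and 4.7 at day 6, overlapping DMSO on both days (adjusted p = 0.295 and 0.937).

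Fendrr is best read in counts. It had 0 counts in every library of DMSO at days 0, 2 and 4, of BPK25 at days 0 and 2, and of IAA at day 0. In DMSO at day 6 the libraries held 5, 5 and 3 counts, in BPK25 2, 3 and 0 at day 4 and 6, 3 and 2 at day 6. In IAA they held 0, 0 and 1 at day 2, 17, 22 and 28 at day 4 and 66, 35 and 45 at day 6. Every IAA library was thus above every DMSO library at days 4 and 6. Against a floor of 3 counts over the DMSO group, the pooled level in IAA at day 4 was at least 18.1-fold higher, and at least 11.3-fold without DMSO replicate 1 or 2. At day 6 the mean was 5.42 ± 0.878 CPM in IAA and 0.354 ± 0.123 in DMSO. Such bounds and intervals reflect counting error alone, because reads are not independent molecules. The 5 counts in BPK25 at day 4, from 2 libraries, stand against 0 in DMSO, and no test of Fendrr is reported. Per kilobase of exon, Fendrr reached 13.7% ± 2.29 (SD) of the Foxf1 level in the 3 IAA libraries of day 4 and 24.7% ± 5.39 at day 6, compared with 5.42% ± 2.23 in DMSO and 5.65% ± 3.09 in BPK25 at day 6. Foxf1 was therefore the more abundant transcript of the pair in every group where both were counted, and the ratio was highest in IAA at day 6.

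Sequence just upstream of Fendrr and Foxd2 is shown because each of these genes lies back to back with another gene, and of Kdr because it was among the first to be high in IAA. The window of Meox2, which also lies back to back with a gene, is not shown. RefSeq (GRCm38.p6) windows were at hand for 6 of the 10 genes, and 5 short motifs, chosen after the sequences had been seen, were searched on both strands, with overlaps between motifs allowed. They were a forkhead core, a GC box, the E-box (CANNTG), a homeodomain site (TAATTA) and the TATA box (TATAAA). Capitals mark a forkhead core (GTAAACA) in Fendrr and GC boxes (GGGCGG, here on the opposite strand) in Foxd2 and Kdr. Each line runs 5′ to 3′ on the gene's own strand, minus in all 3, from 250 to 11 bases before the RefSeq start. For Foxd2 and Kdr that start is not the GENCODE start given with the gene.
Fendrr, chr8:121083121-121083360: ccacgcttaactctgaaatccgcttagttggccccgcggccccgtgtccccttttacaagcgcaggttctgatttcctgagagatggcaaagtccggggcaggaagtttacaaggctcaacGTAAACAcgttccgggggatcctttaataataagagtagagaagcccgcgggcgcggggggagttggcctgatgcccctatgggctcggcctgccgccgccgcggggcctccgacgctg
Foxd2, chr4:114908909-114909148: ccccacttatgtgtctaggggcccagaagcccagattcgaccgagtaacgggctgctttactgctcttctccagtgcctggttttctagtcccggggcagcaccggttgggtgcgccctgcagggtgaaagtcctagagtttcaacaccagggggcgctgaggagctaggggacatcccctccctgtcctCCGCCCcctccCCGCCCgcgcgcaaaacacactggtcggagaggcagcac
Kdr, chr5:75978466-75978705: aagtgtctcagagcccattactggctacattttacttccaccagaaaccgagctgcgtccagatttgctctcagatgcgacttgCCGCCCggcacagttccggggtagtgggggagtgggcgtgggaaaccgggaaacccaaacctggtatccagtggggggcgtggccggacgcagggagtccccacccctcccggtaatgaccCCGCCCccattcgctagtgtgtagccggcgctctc
The forkhead core was in 3.06% of 32851 RefSeq windows of the same kind and the GC box in 31.3%. The Kdr window also held an E-box, left unmarked, that begins 179 bases before the start. E-boxes were in 65% of the windows. Such matches describe these letters and show no binding.

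Foxc2, a forkhead factor of somites, heart outflow and lymphatic valves, lies 31785 bases downstream of the start of Foxf1, from 121116171 to 121118895 on the plus strand of chromosome 8. In DMSO it had 0.136, 0 and 0 CPM at day 0, 0.143, 0.536 and 0 at day 2, 1.54, 1.24 and 1.18 at day 4 and 5.04, 4.75 and 4.05 at day 6. Under IAA the levels were 0.218, 0.446 and 0.291 CPM at day 0, 0.635, 0.197 and 0.76 at day 2, 9.1, 10.7 and 8.77 at day 4 and 10.4, 9.82 and 10.8 at day 6. As with Foxf1, IAA and DMSO overlapped at day 2 and were apart at days 4 and 6. In BPK25 the order was reversed at day 4: it had 0.332, 0.526 and 0.277 CPM, lower than DMSO (log2 difference -1.85 ± 0.44, adjusted p = 0.000344) with no overlap. By day 6 BPK25 had 5.11, 6.06 and 4.97 CPM and overlapped DMSO (difference 0.19 ± 0.17, adjusted p = 0.59). Foxf1 and Foxc2, neighbours on the chromosome, thus stood at 1.64 ± 0.554 and 0.378 ± 0.131 CPM in BPK25 at day 4 and 1.22 ± 0.201 and 1.32 ± 0.194 in DMSO; whether the 2 differences differ from each other was not tested.

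Foxd2, a forkhead factor known from paraxial mesoderm and kidney, lies on chromosome 4 from 114906282 to 114908873 on the minus strand. At day 0 it had 0, 1 and 1 counts in the IAA libraries and 5, 4 and 3 in the DMSO libraries. In DMSO it had 0.577, 1.05 and 1.62 CPM at day 4 and 2.26, 1.98 and 2.12 at day 6. In IAA it had 0.381, 0.493 and 0.38 CPM at day 2, 4.41, 5.93 and 4.82 at day 4 and 4.95, 3.88 and 3.64 at day 6, and in BPK25 0.166, 0.132 and 0.277 at day 4 and 2.51, 2.71 and 2.84 at day 6. IAA was above DMSO in all libraries at days 4 and 6. BPK25 was below it in all libraries at day 4 (log2 difference -2.29 ± 0.55, adjusted p = 0.00043), from 6 counts in BPK25 and 28 in DMSO. Foxd2os, a noncoding gene whose start lies 384 bases from that of Foxd2 on the other strand, was looked at after the values had been seen. At day 4 Foxd2os had 2.95 ± 0.844 CPM in DMSO, 1.46 ± 0.131 in BPK25 and 8.18 ± 0.306 in IAA. At day 6 it had 5.31 ± 0.806 CPM in DMSO, 5.56 ± 0.75 in BPK25 and 10.5 ± 1.2 in IAA. Of the 10 genes, 4 have a gene starting on the other strand within 2000 bases upstream: Foxf1 and Fendrr with each other, Foxd2 with Foxd2os, and Meox2 with Gm29007, which was at 0 in all libraries.

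Foxc1, the paralogue of Foxc2 with shared roles in somites, heart and eye, lies on chromosome 13 from 31806633 to 31812476 on the plus strand. It was low throughout, with 0.818, 2.1 and 2.33 CPM in DMSO at day 0, 2.31, 1.14 and 1.62 at day 4 and 2.84, 2.87 and 2.21 at day 6. Under IAA, Foxc1 had 0.764, 0.446 and 0.436 CPM at day 0, 3.19, 4.26 and 3.08 at day 4 and 6.56, 5.81 and 8.62 at day 6. It was thus below every DMSO library at day 0 and above every one at days 4 and 6. The day 0 difference rested on few counts, 7, 4 and 3 in the IAA libraries and 6, 16 and 15 in the DMSO libraries. In BPK25 at day 4 it had 1.08, 0.921 and 0.74 CPM, lower than DMSO (log2 difference -0.88 ± 0.36, adjusted p = 0.0361). That call was lost with DESeq2 (adjusted p = 0.052) and without any one of 4 libraries: BPK25 replicates 2 and 3 (0.0595 and 0.127) and DMSO replicates 1 and 3 (0.313 and 0.0505). Without DMSO replicate 1 the difference was -0.53.

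Other genes around these forkhead genes were looked at next. Foxl1, the next forkhead gene after Foxc2 and 43554 bases from the start of Foxf1, stayed at or under 0.235 ± 0.234 CPM in every group mean and was not tested. Mthfsd, a gene with a folate enzyme domain between Foxf1 and Foxc2, had 13.3 ± 1.47 CPM in DMSO and 19.9 ± 1.83 in IAA at day 6, and rose in BPK25 at day 4 (0.38 ± 0.10, adjusted p = 0.00106). Beside Foxc1, the forkhead gene Foxf2 had 2.32 ± 0.822 CPM in DMSO and 0.648 ± 0.0789 in IAA at day 6, opposite in direction to Foxc1. Its start lies 180817 bases from that of Foxc1. Foxq1, the third forkhead gene there, had 46.7 ± 1.6 and 48.1 ± 0.424 CPM, Gmds, an enzyme gene of fucose metabolism, 13.5 ± 0.729 and 14.6 ± 0.76, and Exoc2, of the exocyst complex, 45.7 ± 2.23 and 38.9 ± 3.9. Of these 5 tested neighbours, 0 were higher than DMSO by 2-fold with no overlap in IAA at days 2, 4 or 6, and Foxf2 was the 1 that was lower at days 2 and 6. Of all genes, 4.72%, 4.15% and 6.21% were higher and 4.84%, 2.31% and 4.63% lower on those days.

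**Figure D2:**
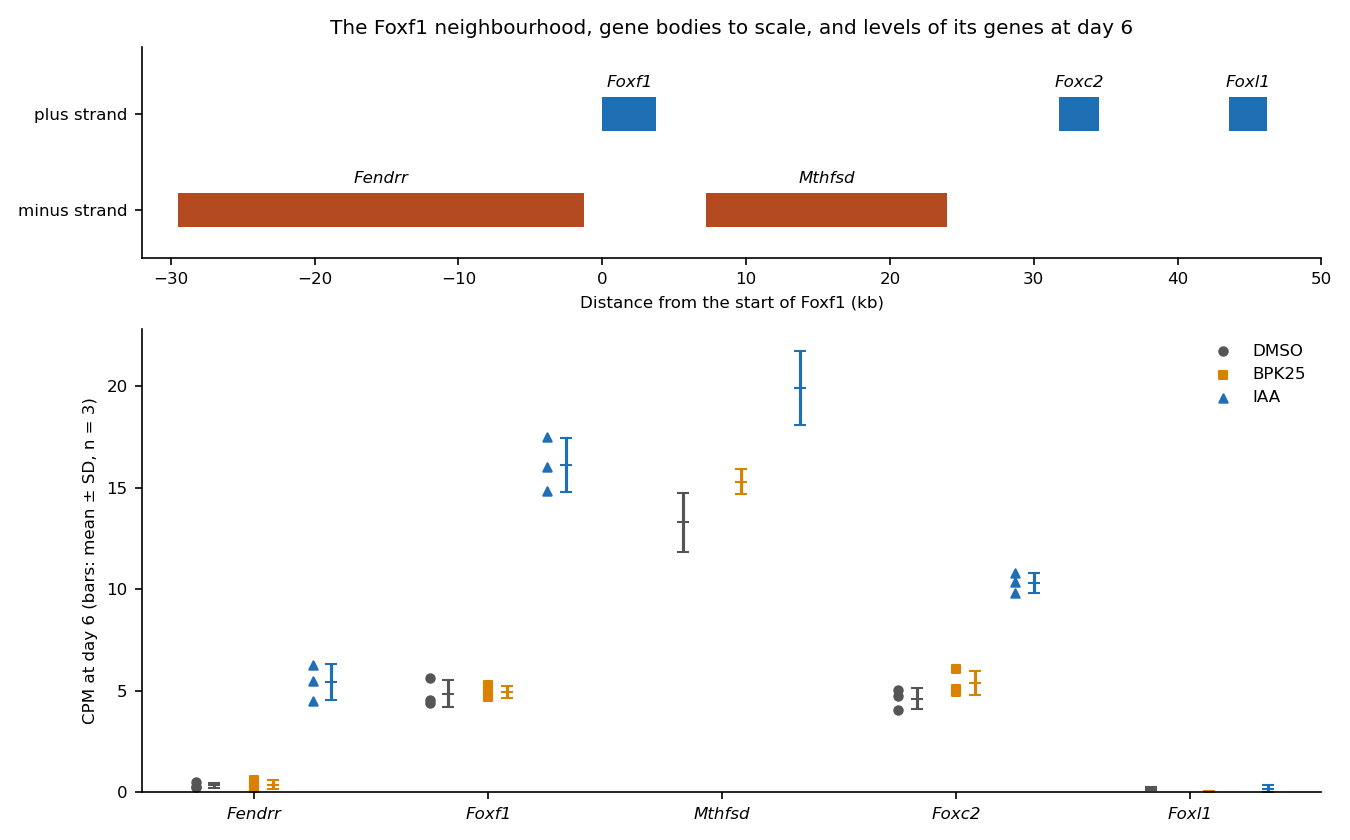
Top, gene bodies around Foxf1 by distance in kb from its start, plus strand in blue and minus strand in red. Bottom, levels at day 6 in CPM on a linear axis from 0, with points for libraries of the described genes and bars for mean ± SD over 3 libraries of each treatment; Fendrr, Foxf1 and Foxc2 are higher in IAA than in DMSO or BPK25, and Foxl1 is near 0 in all 3.

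Kdr encodes VEGF receptor 2 and lies on chromosome 5 from 75932827 to 75978458 on the minus strand. In DMSO it had 1.91, 1.71 and 1.55 CPM at day 0, 3.44, 2.54 and 2.55 at day 2, 5.87, 7.44 and 6.76 at day 4 and 10.7, 11.1 and 8.37 at day 6. IAA libraries had 1.75, 2.45 and 2.62 CPM at day 0, 15.9, 14.4 and 16.2 at day 2, 26.9, 25.6 and 27.4 at day 4 and 26.8, 27.4 and 28.8 at day 6. The groups overlapped at day 0 and were apart from day 2 on, and IAA at day 2 was above DMSO at day 6 in every library. In BPK25, Kdr had 5.14, 6.05 and 4.53 CPM at day 4, where the difference from DMSO was not called (-0.37 ± 0.16, adjusted p = 0.0526), and 16.5, 14.6 and 14.3 at day 6, higher than DMSO by 0.58 ± 0.11 (adjusted p = 0.000637) with no overlap. From the highest group down, the order was IAA at days 6 and 4, which overlapped, IAA at day 2 and BPK25 at day 6, which overlapped, then DMSO at day 6.

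Partners of Kdr in VEGF signalling were followed as a list of 9 genes, all tested. In IAA, 2 of the 9 were at least 2-fold higher than DMSO with no overlap at day 4 and 2 at day 6, and 0 were lower on either day. Of all genes, 4.15% and 6.21% were higher and 2.31% and 4.63% lower by this measure at days 4 and 6. Nrp1, a VEGF co-receptor, stood at 41.9 ± 2.96 CPM at day 4 against 9.48 ± 1.82 in DMSO and at 55.9 ± 1.6 against 18.1 ± 1.29 at day 6. Flt1, a decoy-like receptor for VEGF, stood at 9.37 ± 0.419 CPM against 2.28 ± 0.265 at day 4. The ligand gene Vegfa stood at 106 ± 3 CPM against 50.6 ± 3.44 at day 6. In BPK25 at day 4, 4 of the 9 were called higher than DMSO and 1 lower, a share near the 53% of all genes called in either direction, with a median log2 difference of 0.36 beside -0.01 over all genes: Flt1 rose by 1.36 ± 0.19 on the log2 scale and Nrp1 fell (-0.51 ± 0.16). Flt4, the receptor of lymphatic vessels, rose by 0.46 ± 0.12. These receptors therefore did not share one direction in BPK25.

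The 4 defining endothelial markers differed in direction among themselves in IAA. Pecam1, which stem cells also express, had 271 ± 3.94 CPM in DMSO at day 0, 43.2 ± 1.68 at day 6 and 66.2 ± 4.77 in IAA at day 6. The endothelial cadherin gene Cdh5 had 12.5 ± 1.45 CPM in IAA at day 4 against 7.92 ± 0.64 in DMSO. At day 6 in IAA, Cdh5 had 10.9 ± 1.1 CPM against 21.8 ± 3.47 in DMSO, the angiopoietin receptor gene Tek 4.5 ± 0.955 against 12.2 ± 0.24, and Tie1 0.894 ± 0.352 against 0.885 ± 0.132. The sum of these 4 was 82.4 ± 3.13 CPM in IAA and 78.1 ± 3.75 in DMSO. Of 19 tested endothelial and blood genes, 3 were at least 2-fold higher and 1 lower in IAA at day 6, beside 6.21% and 4.63% of all genes. The largest difference among those the naming rule covers was in Gata2, a factor of blood and endothelium, at 12.2 ± 1.27 against 3.18 ± 0.0802 CPM. In BPK25 at day 4, 1 of the 19 rose (Pecam1, 1.22 ± 0.05) and 8 fell, among them Cdh5 (-1.73 ± 0.18), beside 26.2% and 26.8% of all genes; the median was -0.49.

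**Figure D3:**
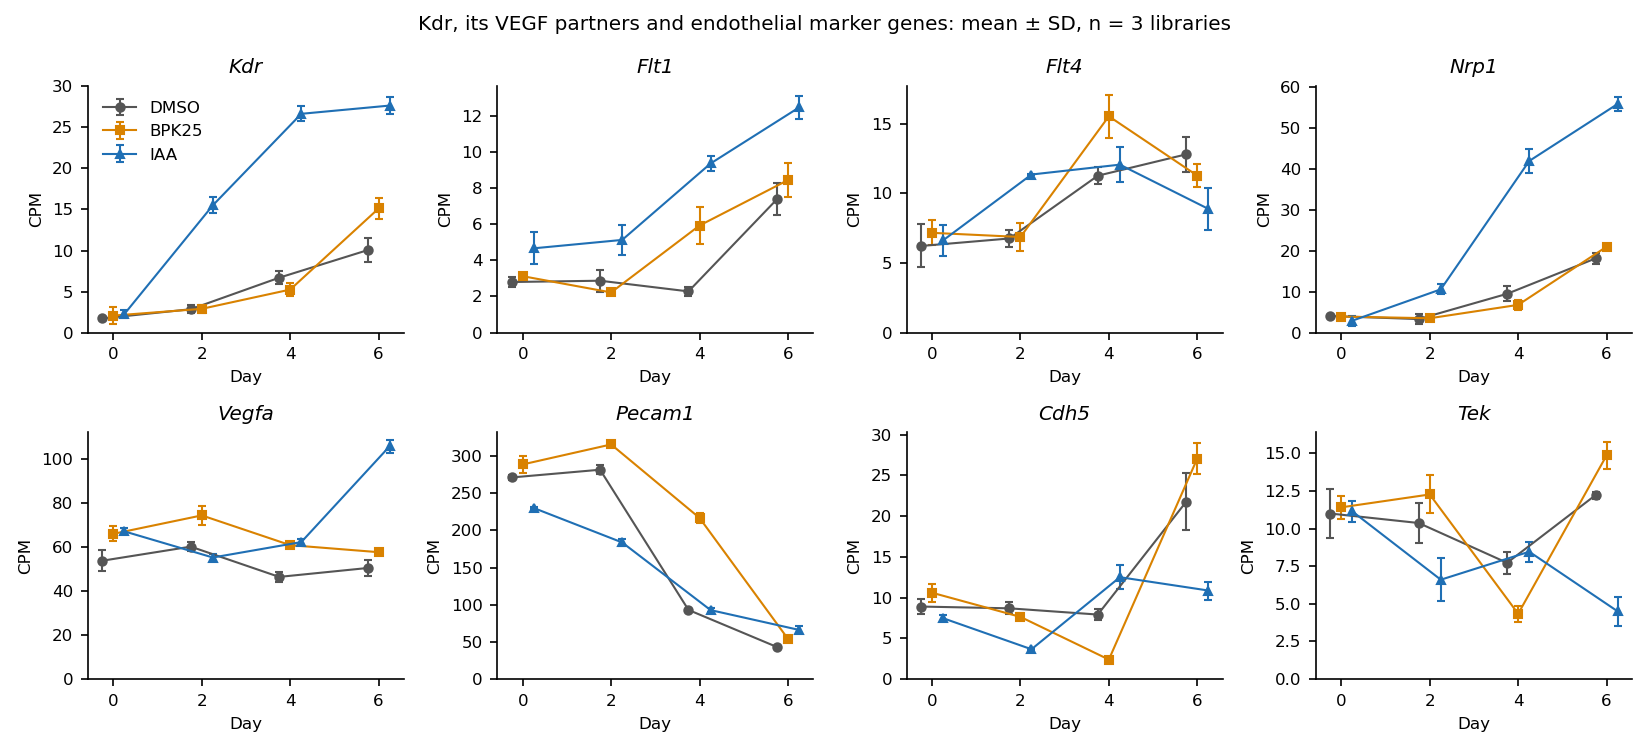
Levels in CPM (y axes, linear and starting at 0, with a different range in each panel) of Kdr, 4 other genes of VEGF signalling and 3 endothelial markers against day (x axes), as mean ± SD over 3 libraries in DMSO (grey circles), BPK25 (orange squares) and IAA (blue triangles). Kdr and Nrp1 are highest in IAA from day 2 on, whereas Cdh5 and Tek are lower in IAA than in DMSO at day 6.

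Time courses were compared within a treatment. BPK25 libraries were not part of the IAA contrast on which several genes were chosen, and DMSO libraries were its controls. How the other genes were chosen is not given, and earlier results of these data were known. In BPK25, Meox1 (log2 5.35 ± 0.16), Foxf1 (5.10 ± 0.40), Foxc2 (4.11 ± 0.32), Foxd2 (2.85 ± 0.38), Kdr (2.81 ± 0.17), Foxc1 (1.84 ± 0.30) and Twist1 (0.94 ± 0.20) were higher at day 6 than at day 0, and Tcf15 (-1.71 ± 0.14) was lower. Adjusted p ran up to 6.07e-05 in these comparisons by edgeR's test. The 7 rises and 1 fall among 8 genes stand beside 33.5% of all genes called higher and 30% lower in the same comparison. At day 4 the counts were 4 and 1, beside 33.4% and 31.5%. Foxc2 (0.27 ± 0.61, adjusted p = 0.715), Foxd2 (-0.84 ± 0.68, adjusted p = 0.283) and Foxc1 (-0.06 ± 0.40, adjusted p = 0.908) were not called at day 4. At day 2 it was 0 and 0, beside 4.88% called either way; 0 of the 8 had an unadjusted p under 0.05 in edgeR's test and DESeq2 called 0.

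In DMSO, 0 of the 8 were called as different from day 0 at day 2, where 5.44% of all genes did; 1 had an unadjusted p under 0.05 in edgeR's test and DESeq2 called 0. At day 4, 4 rose and 1 fell, beside 26% and 24.4%, and at day 6, 6 rose and 1 fell, beside 33.2% and 29.5%. Meox1 rose most among genes with more than 3 counts at day 0, by 5.38 ± 0.21 on the log2 scale at day 6. Foxc2 went from 1 count at day 0 to 179 at day 6, a ratio of 100 with an exact 95% counting interval of 17.8 to 3980. The ratio was 64.5 without DMSO replicate 2 of day 0, and at least 22 without replicate 1, which held the 1 count. Fendrr went from 0 to 13 counts. Foxc1 was not called at day 6 (0.62 ± 0.29, adjusted p = 0.0608) but was without DMSO replicate 2 or 3 of day 0 or replicate 3 of day 6 (0.0489, 0.0302 and 0.045). Twist1 was called (0.58 ± 0.23, adjusted p = 0.0257) and lost the call without DMSO replicate 1 or 2 of day 0 or replicate 2 of day 6 (0.167, 0.0593 and 0.147).

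The difference between BPK25 and DMSO depended on the day for most of these genes. Against DMSO of the same day, 0 of the 8 were called at day 0 and 0 at day 2, where 7.9% and 13.5% of all genes were. By unadjusted p under 0.05 in edgeR's test, 2 and 2 of the 8 passed, and DESeq2 called 0 on both days. At day 4, 1 was higher (Twist1) and 5 lower (Meox1, Tcf15, Foxc1, Foxc2 and Foxd2), beside 26.2% and 26.8% of all genes, so that 53% of all genes were called in this comparison. At day 6, 2 were higher (Meox1 and Kdr) and 0 lower, beside 4.01% and 3.08%. These comparisons share their DMSO libraries with the IAA contrast that chose several of the genes. A joint test of whether the BPK25 effect differed between the 4 days called 7 of the 8, beside 47.1% of all genes; Foxf1 (adjusted p = 0.449) was not called.

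**Figure D4:**
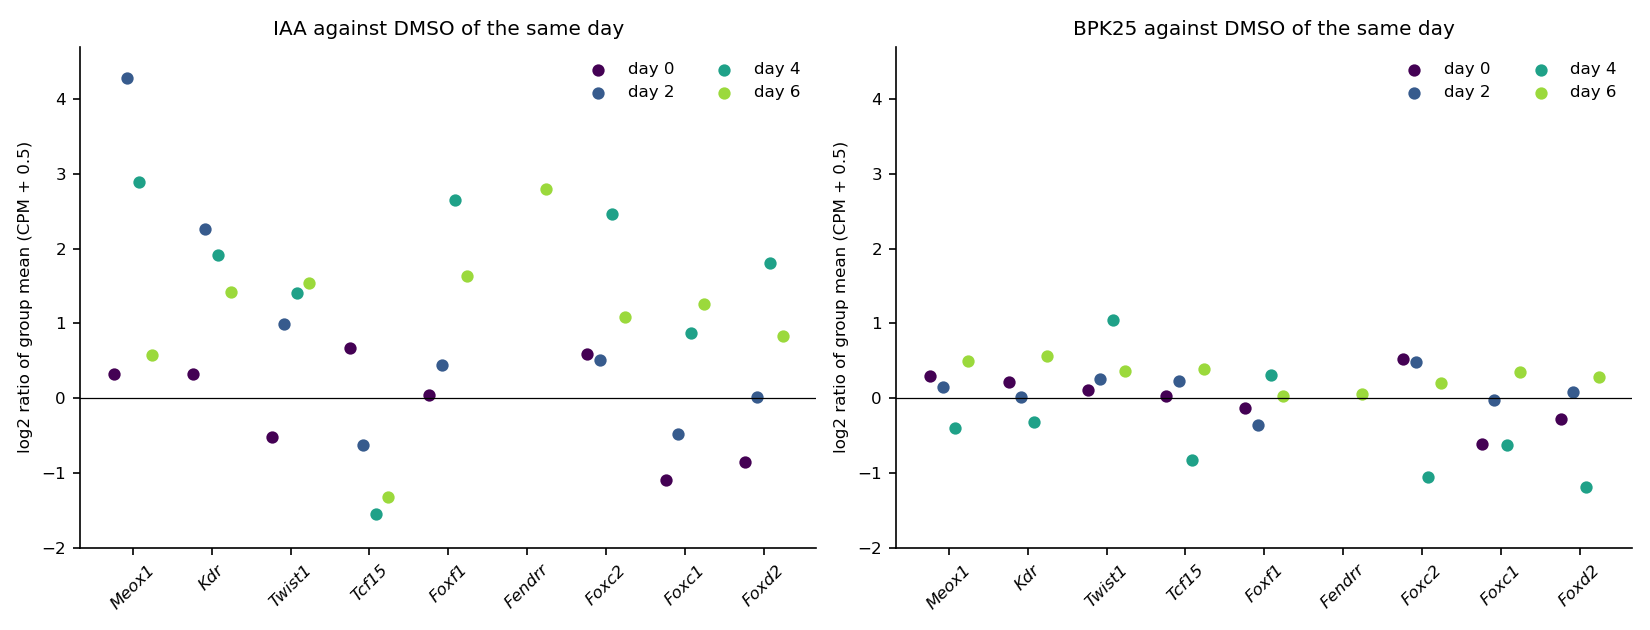
Log2 ratio of group means of CPM + 0.5 (y axes, same range) against DMSO of the same day for 9 genes (x axes), IAA left and BPK25 right, 1 point per day. Fendrr has a point only at day 6, since its DMSO groups of days 0, 2 and 4 were at 0; IAA points of all genes but Tcf15 lie above 0 at days 4 and 6, and BPK25 points of Meox1, Kdr, Tcf15, Foxc1, Foxc2 and Foxd2 lie below 0 at day 4 and above it at day 6.

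Markers of other cell types also varied between these groups. Of 6 fibroblast markers (Col1a1, Col1a2, Col3a1, Thy1, Postn and Dcn), the summed level was 10.3 ± 1.27 CPM in DMSO at day 0 and 64.2 ± 2.8 at day 6, 95.2 ± 4.53 in BPK25 at day 6, and 40.5 ± 1.83 and 210.2 ± 5.47 in IAA at days 4 and 6. Over the libraries of day 6 this sum ran from 61 to 66.1 CPM in DMSO and from 204 to 215 in IAA. Col3a1, a collagen of loose connective tissue, led with 103 ± 6.99 CPM in IAA at day 6, while Dcn stood at 0.662 ± 0.22 and Thy1 at 0.239 ± 0.238. The markers did not share one direction at day 6. Dcn had 17 counts in IAA and 55 in DMSO, and Thy1 7 and 35, with larger library totals in DMSO. Col1a1, Col1a2, Col3a1 and Postn had more counts in IAA than in DMSO. Dcn had 0 counts in BPK25 at day 4 and in IAA at day 2. At IAA day 2 the sum was 19.9 ± 0.898 CPM against 10.4 ± 0.753 in DMSO, which came from Col1a2 (14.7 ± 0.632 against 2.7 ± 0.671), and Col3a1 stood at 0.65 ± 0.248 against 1.81 ± 0.308. The part of feeder fibroblasts in the levels described here was not tested. Visceral endoderm markers Afp and Ttr summed to 38 ± 2.48 CPM in BPK25 at day 4 against 2.57 ± 0.22 in DMSO, and to 52.1 ± 3.05 in IAA at day 6 against 6.94 ± 0.224. Definitive endoderm markers Sox17 and Foxa2 summed to less than in DMSO in BPK25 at day 4 and in IAA at day 6. They had 35.9 ± 0.87 CPM in BPK25 at day 4 against 53 ± 1.05, and 65.1 ± 1.73 in IAA at day 6 against 91.8 ± 1.84. In IAA at day 4 the sum was 56.6 ± 1.15 CPM. The lower sum in BPK25 came from Sox17, with 561 counts against 1033 in DMSO, while Foxa2 had 531 against 431. At day 6 Sox17 had 920 counts in IAA against 2298, and Foxa2 810 against 1197, with larger library totals in DMSO. Of 11 tested endoderm genes, 4 rose and 6 fell in BPK25 at day 4, beside 26.2% and 26.8% of all genes. In IAA at day 6, 3 were at least 2-fold higher with no overlap and 0 lower, beside 6.21% and 4.63%. Their part in the results was not tested either. Of the blood markers, Ptprc and Hbb-bt were at or near 0 in every group, and Gata1 stayed under 1 CPM.

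Genes that act before these factors in the embryo were followed as lists. Of 16 genes of the primitive streak and nascent mesoderm, 6 were tested. T, Mixl1, Mesp1, Msgn1 and Tbx6 had at most 2.22 ± 0.21, 0.538 ± 0.214, 0.0972 ± 0.0847, 0.269 ± 0.107 and 0.549 ± 0.109 CPM in any group mean. These 5 of the 16 were named after their values had been seen, and they do not stand for the whole list. In BPK25 against DMSO at day 4, 2 of the 6 tested genes were higher and 1 lower, beside 26.2% and 26.8% of all genes. The median log2 difference there was 0.80, beside -0.01 over all genes. In BPK25 at day 6 against day 0, 1 of the 6 rose and 4 fell, among them Cdx1 (-3.56 ± 0.23), a posterior homeobox gene, and Eomes (-0.55 ± 0.11), a T-box factor. Of 22 paraxial mesoderm and somite genes, 11 were tested, and 3 rose and 3 fell in the same comparison. Among them the Notch ligand gene Dll1 fell (-0.52 ± 0.18). Of 17 tested lateral plate and heart genes, 9 rose and 3 fell, beside the shares of all genes given above. Median log2 differences of the 3 lists were -0.76, 0.61 and 0.38, beside 0.03 over all genes. Osr1, a factor of intermediate and lateral mesoderm, stood at 2.71 ± 0.608 CPM in BPK25, 1.97 ± 0.0561 in DMSO and 13.5 ± 1.15 in IAA at day 6. Hand2, a factor of heart and limb, stood at 2.85 ± 0.848, 2.15 ± 0.127 and 7.75 ± 0.142, and Wt1, of the body cavity lining and kidney, at 6.72 ± 1.73, 6.58 ± 0.751 and 20.1 ± 3.21. In IAA at day 6 these 3 were above DMSO in every library. They are among the 4 of the 17 genes that were at least 2-fold higher there with no overlap, while 1 was lower and 12 were neither, with a median log2 ratio of 0.17. The shares of all genes were 6.21% higher and 4.63% lower.

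Between genes, levels can be compared only per length of transcript. In IAA at day 6, CPM per kilobase of exon was 17.5 ± 0.901 for Meox1, 8.44 ± 0.889 for Twist1, 6.67 ± 0.549 for Foxf1, 3.79 ± 0.181 for Foxc2, 3.06 ± 0.111 for Kdr, 1.65 ± 0.651 for Tcf15, 1.63 ± 0.264 for Fendrr, 1.6 ± 0.268 for Foxd2 and 1.2 ± 0.249 for Foxc1. In DMSO at day 0, Tcf15 led with 21.6 ± 0.724, followed by Twist1 with 1.77 ± 0.426, and Meox1 had 0.289 ± 0.293. The leading gene per length was thus Tcf15 at the start and Meox1 at the end.

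Over the 12 group means of log2(CPM + 0.5), the 9 genes varied together apart from Tcf15. Pearson r was 0.967 between Meox1 and Kdr, 0.96 between Foxc2 and Foxd2, 0.958 between Foxc2 and Foxf1 and 0.888 between Foxf1 and Fendrr. Without Tcf15, the lowest values were 0.664 between Meox1 and Foxc1 and 0.679 between Meox1 and Fendrr. Tcf15 had negative values with all 8 others, from -0.959 with Foxf1 to -0.821 with Foxc1. These points share libraries and a common time trend, and several of the genes were chosen on IAA, so the values are a description. By the same measure the genes outside the set most like each were Hoxc8, Kalrn and Mecom for Meox1 (0.993, 0.99 and 0.987), and those for Kdr included Bloc1s5 and Kalrn (0.988 and 0.983). For Tcf15 they were Nanog, Mccc1 and Fzd10 (0.991, 0.985 and 0.983), and for Twist1 they were Mttp, Ankrd31 and Adgra2 (0.991, 0.981 and 0.98). Ltbp1, Patj and Tshz2 were most like Foxf1 (0.988, 0.984 and 0.983), and Cd93, Tnnt3 and Cxcl15 most like Fendrr (0.99, 0.988 and 0.988). Foxb1, Shisa3 and Isx came first for Foxc2 (0.988, 0.983 and 0.981), Spint5, Shisa3 and Spon1 for Foxd2 (0.984, 0.984 and 0.982), and Nhlrc3, Ugt1a7c and Xlr5a for Foxc1 (0.969, 0.969 and 0.967). With Spearman's rank correlation in place of Pearson's r, 5 of the 27 choices, 3 for each of 9 genes, were the same.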

How the data were processed

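The submitters' processing notes name HISAT2 2.1.0, FastQC 0.11.7, featureCounts 2.0.1, DESeq2 and the build mm10, without roles; strand setting and annotation release were not given. Raw, unnormalized counts for 36 libraries were deposited by the authors in 1 table, per the file headers and its whole numbers. Groups came from the labels. Positions are from GENCODE M21, which 54587 of 55335 gene IDs matched, and upstream sequences from RefSeq.

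Genes were kept with edgeR's filterByExpr (minimum count 10, minimum total 15), scaled by TMM and fitted in 1 model of 12 groups with edgeR's quasi-likelihood test, two-sided, with Benjamini-Hochberg adjustment over 17394 genes and a call at an adjusted p under 0.05 (R 4.3.3, edgeR 4.0.16, limma 3.58.1, DESeq2 1.42.0). The members and lists were chosen with earlier results of these data known. Named were all 10 genes, the 3 genes most like each (predicted and clone names left out, at least 1 CPM in a group), all Fox neighbours, defining markers, and up to 4 genes of each other list with the largest called change (at least 5 CPM in a group) or, for IAA, the largest fold with no overlap. Some genes that this rule covers are not reported here. Other genes are said to be named after their values were seen. The test was also run on simulated data. Each comparison was repeated with DESeq2, with RLE size factors, without the filter or with 1 CPM required in 3 libraries, on the compared libraries alone, with a replicate block, and with single libraries left out. Replicate pairs of a group differed by more than sampling noise (chi-square per degree of freedom 1.35 to 2.85 in 36 pairs).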

Additional observations from a re-analysis of the deposited data

Results flagged for a closer look

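For 7 of the 8 tested genes other than Fendrr the difference between BPK25 and DMSO was itself different between days, by edgeR's joint quasi-likelihood test with 3 degrees of freedom. Adjusted p was 2.72e-05 for Meox1, 1.73e-05 for Tcf15, 0.0227 for Foxc1, 0.000235 for Foxc2, 0.00256 for Foxd2, 0.0215 for Twist1 and 0.000936 for Kdr, in a comparison where 47.1% of all genes were called. Meox1 went from -0.42 ± 0.13 at day 4 to 0.50 ± 0.08 at day 6 (log2 difference from DMSO), Foxd2 from -2.29 ± 0.55 to 0.33 ± 0.24 and Twist1 from 1.12 ± 0.19 to 0.48 ± 0.18. The call of Foxc1 was lost without DMSO replicate 1 of day 4 (adjusted p = 0.069), BPK25 replicate 2 of day 6 (0.0592) or DMSO replicate 3 of day 6 (0.0506), and that of Twist1 without DMSO replicate 3 of day 4 (0.0664).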

How the results depend on the processing

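All 37 called differences of a single member kept their direction under every alternative, while 19 of the other differences changed sign under 1 or more of them. Each of 99 tests, Fendrr and the joint test included, kept its call with RLE size factors, with the stricter filter and with a replicate block; since r between deviations of same-numbered libraries ran from -0.0465 to 0.0183 and 0 of 10 comparisons met the pairing rule, the numbers name libraries only. Fendrr is among the 37 differences and the 99 tests. No call of it is read as a result, since it passed the filter only through IAA libraries. Apart from Fendrr, each test also kept its call with no filter and on the compared libraries alone. DESeq2 lost Foxc1 in BPK25 against DMSO at day 4, as given above. Fitting only the libraries compared called 606 genes in DMSO at day 2 against day 0, in place of 946. With 1 library left out, which leaves 2 in its group under a spread pooled over all groups, genes called ran from 844 to 1012 (1374 reported) for BPK25 against DMSO at day 0, from 1743 to 1890 (2352) at day 2 and from 544 to 1224 (1233) at day 6. They ran from 412 to 954 (946) for DMSO and from 496 to 810 (848) for BPK25 at day 2 against day 0. Members higher in BPK25 against DMSO ran from 0 to 1 at day 2 (Foxc2, without DMSO replicate 2, adjusted p = 0.0324 in edgeR's test). They ran from 2 to 3 at day 6 (Twist1, without BPK25 or DMSO replicate 2, 0.042 and 0.0293). Members lower at day 4 ran from 4 to 5, with Kdr gained without BPK25 replicate 2 or DMSO replicate 1 (0.0296 and 0.0292). Against day 0, members higher ran from 4 to 5 at day 4 in DMSO (Foxd2 gained without replicate 1 of day 4, 0.0475). At day 6 in DMSO the changes were those of Foxc1 and Twist1 given above. The joint test called 6 to 7. Of 360 IAA ratios recomputed under alternatives, 17 moved by more than the spread between replicates and 0 reversed. The counts of Fendrr, Foxc2, Foxd2 and Foxf1 at days 0 and 2, at most 25 in a group, limit what can be detected there.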

Other observations

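Some named genes of the epithelial and mesenchymal states did not split by name in IAA. Of the 13 tested genes of that list, 3 were at least 2-fold higher with no overlap and 0 lower at day 2. At day 6, 2 were higher and 1 lower, with a median log2 ratio of 0.15. The shares of all genes were 4.72% and 4.84% at day 2 and 6.21% and 4.63% at day 6. At day 6 the epithelial cadherin gene Cdh1 had 376 ± 3.37 CPM in IAA against 132 ± 6.08 in DMSO, on the day when Twist1 was at its highest there, and Snai2, a factor linked to the mesenchymal state, had 7.68 ± 1.08 against 1.89 ± 0.649. At day 2 the homeobox genes Msx1 and Msx2 had 5.46 ± 0.437 and 3.55 ± 0.552 CPM in IAA against 0.723 ± 0.378 and 0.781 ± 0.323 in DMSO, early like Meox1 and Kdr, but Msx1 then stood at 2.07 ± 0.375 against 4.84 ± 0.959 at day 6. Nrp2, a co-receptor gene of the VEGF list, had 38.5 ± 1.06 CPM in IAA against 11.4 ± 0.885 in DMSO at day 0 and 8.69 ± 0.633 against 9.01 ± 0.648 at day 2, and so was high in IAA before Kdr was.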
